A study of Arabidopsis thaliana with 4 samples.

Results

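Transcript levels were described in roots of wild-type (WT, accession Columbia) Arabidopsis thaliana seedlings grown with ample nitrogen. The values are those of 1 array, the only WT array of 4 in the series. Rows of the array annotated with 1 gene were kept, and for each gene the row with the highest mean over the 4 arrays was taken. This gave 16548 genes, which are all the genes that the same rule gives for the whole series. WT seedlings were 14 d old, grown at 22 °C under continuous light of 80 µmol per square metre and second. They were moved at 7 d to a medium with 10 mM NH4Cl and 10 mM KNO3. Sucrose was 1% in the first medium and 0.5% in the second. The other 3 arrays came from plants labelled CEPD1ox, CEPD2ox and CEPDL2ox on the same medium. They served to choose rows and to give a spread. They also entered a check with the mean over the 4 arrays and a count of rows with equal values. How many roots were pooled for the WT array, and from how many plates, is not given in the sources used here.

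A root holds many cell types in concentric layers: epidermis with root hairs, cortex, endodermis, and the vascular tissue inside. Roots take up nitrate through transporters of the NPF and NRT2 families. In Arabidopsis and its relatives, root cells also contain ER bodies, compartments of the endoplasmic reticulum filled with beta-glucosidases that act on defence compounds. Root plastids are mostly non-green, but their genome carries the same genes for photosynthesis as that of leaf chloroplasts. In whole roots, fewer cells of a type and less RNA per cell cannot be told apart.

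All levels below are log2 signals of 1 array probe set per gene. They are not scaled by transcript length, and probes differ in how strongly they bind, so an order of signals is not an order of RNA amounts and no fold between genes is given. The percentile of a gene is the share of the 16548 genes with a lower signal. With 1 WT array there is no replicate and no test. The ± values are the SD over the 4 arrays (n = 4, 1 per genotype), which also holds any difference between genotypes. The median of this SD was 0.22 in the lowest 10 percent of genes by WT signal and 0.24 in the group with the widest spread, genes between 2.46 and 3.103. It was 0.085 in the highest 10 percent. Differences between neighbouring genes are therefore least certain at the low end.

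**Figure D1:**
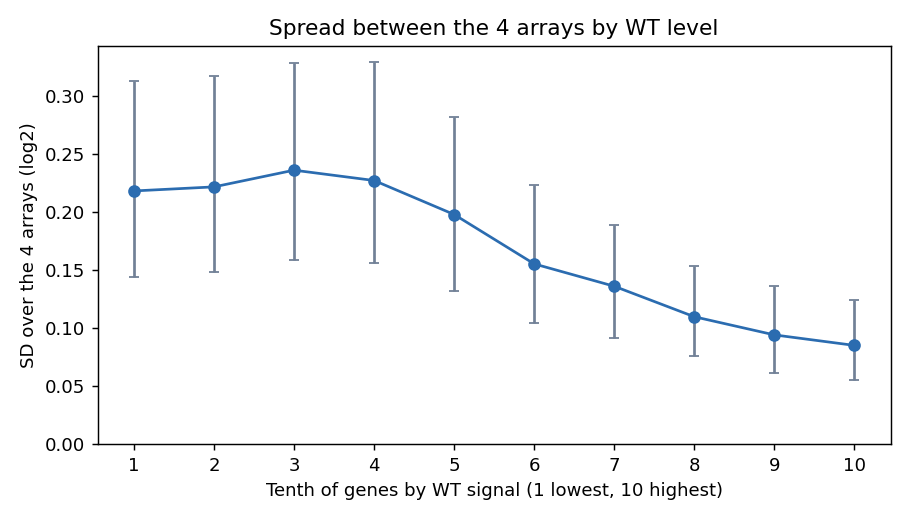
SD over the 4 arrays (log2, n = 4, 1 array per genotype) for genes divided into 10 groups of equal size by WT signal. Points are medians and bars run between the quartiles, and the median spread was 0.24 in group 3 and 0.085 in group 10.

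WT signals ran from 0.60 to 13.28 with a median of 4.99 and quartiles of 2.76 and 6.92. Their distribution had a low peak near 2 and a broad one between 6 and 7. Below, a gene is called high above 8.298, the 90th percentile, and low below 2.76, the 25th percentile. By construction these hold 1655 genes (10.0%) and 4137 genes (25%). Among nuclear genes with a symbol, 15.5% were high and 20.2% were low, and counts in families should be read beside these shares. The genes come from 1805 entries with a symbol of their own and 14743 known to the tables by locus number only. They cover 16499 of the 27550 protein coding genes of the RefSeq table, so a gene or family that is missing here was not analysed and is not shown to be silent. Families below hold only genes whose symbol, or for some families a synonym, shows the family. Members without such a name are left out. A family median therefore describes the named part alone.

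The tissue label was checked against cell type markers. The 9 measured markers of pollen, stomata and the shoot meristem were all low, between 1.42 and 2.597. No marker of floral organs or trichomes was analysed. CLV3, the shoot stem cell peptide, was at 1.42 ± 0.29. The stomatal regulators SPCH, FAMA and MUTE were at 2.04 ± 0.16, 1.93 ± 0.16 and 1.66 ± 0.40. The pollen pectin methylesterases VGD1 and PPME1 were at 2.02 ± 0.16 and 1.80 ± 0.23. Root markers stood far above these. JKD, a zinc finger factor of cortex and endodermis patterning, had 8.91 ± 0.06, at percentile 94.2. EXPA18 and EXPA7, expansins of root hair cells, had 8.24 ± 0.21 and 6.60 ± 0.11. SGN3, the receptor kinase that seals the Casparian strip of the endodermis, had 7.88 ± 0.09. BBM, a factor of root stem cells and embryos, had 5.16 ± 0.28, close to the median of all genes. Of 3 cortex markers with a row, only JKD was used, because the tables do not give the other labels. Xylem, phloem and root cap markers were not analysed here.

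**Figure D2:**
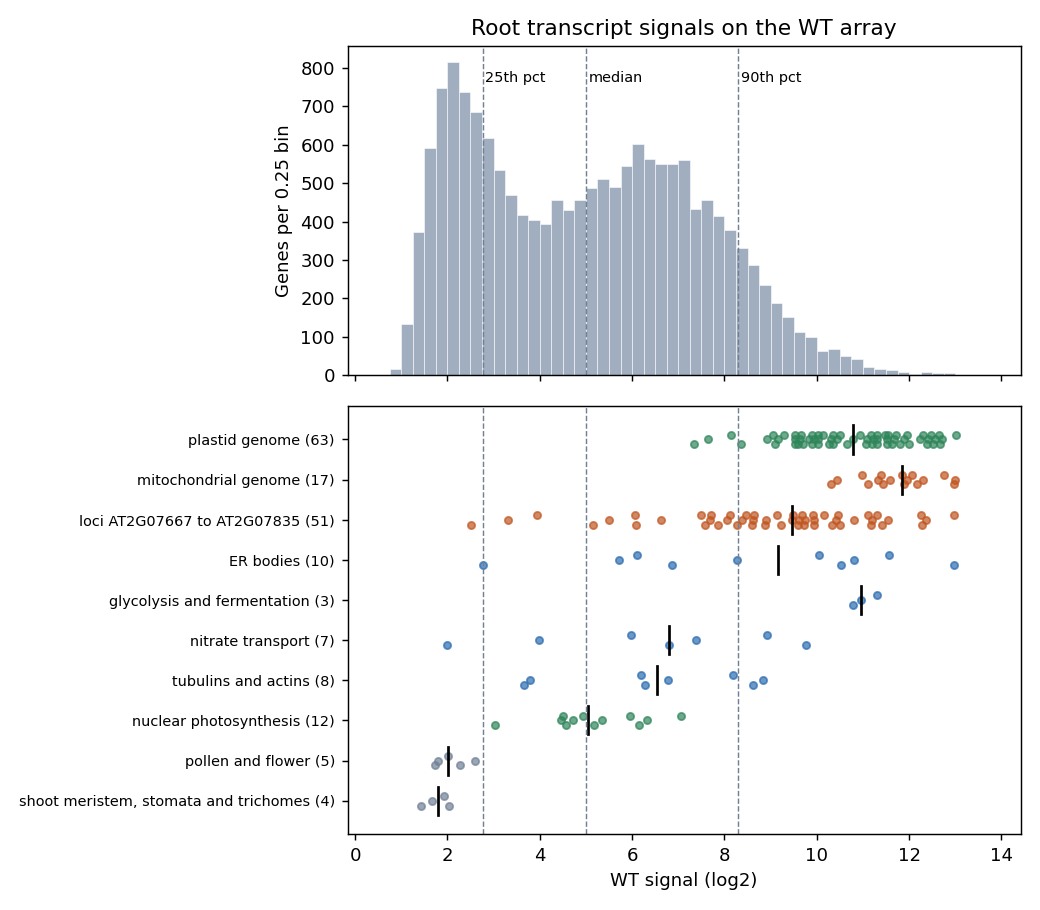
Upper panel: number of genes per bin of 0.25 by WT signal (log2). Lower panel: single genes (points) and median (black bar) of gene groups, with the number of genes in brackets. Dashed lines mark 2.76, 4.99 and 8.298, the 25th, 50th and 90th percentiles of all genes. Plastid and mitochondrial genes lie on the right, and pollen, stomatal and shoot meristem markers lie left of 2.76. The groups labelled with flower and trichomes hold no marker of floral organs or trichomes.

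Transcripts of the plastid and mitochondrial genomes led the WT root array. Among the 30 highest genes, 12 were plastid genes, 7 were mitochondrial genes and 6 were nuclear genes. A further 4 lay in the stretch of chromosome 2 between AT2G07667 and AT2G07835, and 1 was rpl2, whose genome the tables do not give. That stretch is known to hold an inserted copy of much of the mitochondrial genome. Signals of near-identical copies cannot be told apart, so its loci are kept separate from other nuclear genes. The highest signal was that of rpl2, a ribosomal protein gene, at 13.28 ± 0.04. Below it stood psbA, which encodes the D1 protein of photosystem II, at 13.02 ± 0.11. Close to it were cox1, a subunit of cytochrome c oxidase, at 13.00 ± 0.0045, and the nuclear gene PYK10 at 12.98 ± 0.05. AT2G07741 had 12.98 ± 0.02 and nad1 had 12.97 ± 0.03. From psbA to nad1, these genes were apart by less than the SD of psbA, so their order is not resolved.

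All 17 mitochondrial genes were high, with a median of 11.85. The 8 nad genes, subunits of respiratory complex I, ran from 11.43 for nad6 to 12.97 for nad1, with a median of 12.11. The 4 ccb genes, named for cytochrome c biogenesis, ran from 10.31 for ccb382 to 11.88 for ccb452. The lowest of the other mitochondrial genes was matR, a maturase, at 10.44 ± 0.12, and atp1, the alpha subunit of ATP synthase, had 11.34 ± 0.12. The 51 loci of the chromosome 2 stretch were more mixed. Of these, 35 were high and 1 was low, with a median of 9.46 and a range of 2.52 to 12.98.

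Of the 63 plastid genes, 60 were high and none was low, and their median was 10.79, at percentile 99.3. The 4 measured genes of the ATP synthase had the highest median of any plastid complex, 11.78, led by atpH, a membrane ring subunit, at 12.71 ± 0.07. The 5 genes of photosystem I had a median of 11.54. Its reaction centre genes psaB and psaA were at 12.48 ± 0.08 and 11.54 ± 0.12. The 6 genes of the cytochrome b6f complex had a median of 11.39, from petN at 9.70 ± 0.38 to petB at 12.56 ± 0.09. The 13 genes of photosystem II spread most widely, with a median of 10.79. Below psbA stood psbF at 12.23 ± 0.15 and psbB at 11.21 ± 0.15, while psbT at 7.65 ± 0.37 and psbM at 7.34 ± 0.24 were not high. The 10 genes of the NADH dehydrogenase-like complex had the lowest median, 9.75, and ndhF at 8.14 ± 0.10 was the third plastid gene that was not high.

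Plastid genes for gene expression lay in the same range as those for photosynthesis. The 13 ribosomal protein genes had a median of 10.31, from rps16 at 8.35 ± 0.19 to rpl14 at 12.67 ± 0.05. The 4 subunits of the plastid RNA polymerase had a median of 10.28, with rpoA at 11.20 ± 0.10 and rpoB at 9.53 ± 0.09. Genes of other functions included rbcL, the large subunit of Rubisco, at 11.95 ± 0.22. The protease subunit clpP was at 12.00 ± 0.05, and accD, a subunit of the enzyme that starts fatty acid synthesis, was at 11.31 ± 0.05.

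**Figure D3:**
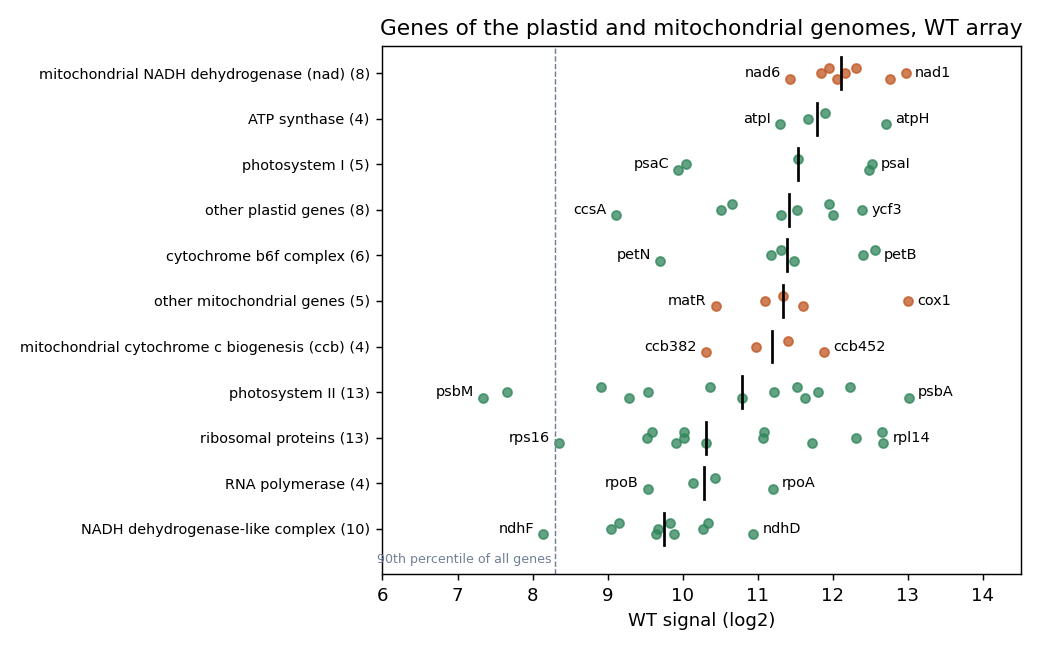
WT signal (log2) of each gene (points) of the plastid genome (green) and the mitochondrial genome (orange) by complex or function, with the number of genes in brackets, the group median (black bar) and the names of the lowest and highest gene. Of the 80 genes, 3 plastid genes lie left of the dashed line at 8.298, the 90th percentile of all genes.

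Nuclear genes of photosynthesis did not share these levels. The 12 found by name had a median of 5.05, at percentile 50.7, and none was high. PSBW, a small subunit of photosystem II, had the highest signal at 7.06 ± 0.60. RCA, which activates Rubisco, had 6.31 ± 0.31, and the light-harvesting genes LHB1B2 and LHCB4.3 had 6.14 ± 0.41 and 3.03 ± 0.09. PRK, an enzyme of the Calvin cycle, had 4.58 ± 0.90, so its place in the order is poorly set. None of the 12 was low either, unlike the pollen, stomatal and shoot meristem markers. The median SD of these 12 genes was 0.40, against 0.16 over all genes. Since SDs fall with level, the value to set beside it is 0.20 for genes between 4.05 and 4.99 and 0.16 for the next group, up to 5.82.

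The brightest nuclear gene was PYK10 (AT3G09260), the main beta-glucosidase of root ER bodies. It led a group of ER body genes, 10 of which were measured, with a median of 9.17 at percentile 95.5. Of the 10, 5 were high. NAI2, needed to form ER bodies, had 11.57 ± 0.09. The PYK10 relatives BGLU21 and BGLU22 had 10.81 ± 0.15 and 10.06 ± 0.23. JAL34, a jacalin-related lectin of the PYK10 complex, had 10.52 ± 0.20. Other lectins of the group spread downward, with JAL22 at 8.28 ± 0.31, JAL31 at 6.85 ± 0.27, JAL33 at 5.71 ± 0.26 and JAL23 at 2.76 ± 0.11. NAI1, the bHLH factor that controls these genes, had 6.10 ± 0.32, at percentile 63.6. The rest of the beta-glucosidase family did not share the level of the ER body members. Among the 22 genes named BGLU, which leave out PYK10, the median was 4.17 and only BGLU21 and BGLU22 were high. BGLU36, the lowest, had 1.97 ± 0.13.

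Loci without a symbol stood beside PYK10 and PRXR1 at the top of the nuclear order. AT2G43150 had 12.82 ± 0.08, AT3G63052 had 12.69 ± 0.09 and AT3G48140 had 12.38 ± 0.05. AT4G16720 had 12.35 ± 0.05 and AT3G32980 had 11.93 ± 0.04. The tables give these loci no name, and no role is given here.

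Nuclear genes with a symbol that followed PYK10 had varied roles. PRXR1, a class III peroxidase, had 11.96 ± 0.03, and OSM34, an osmotin-like protein, had 11.60 ± 0.11. The vacuolar aspartic protease APA1 had 11.41 ± 0.06. COB, a GPI-anchored protein that orients cell expansion in roots, had 11.36 ± 0.09. TMT1, which loads monosaccharides into the vacuole, had 10.98 ± 0.12. Of the glycolysis and fermentation list, 4 genes had a row and 3 were used, and all 3 were high. GAPC2, a cytosolic glyceraldehyde-3-phosphate dehydrogenase, had 11.31 ± 0.13, and TPI, the cytosolic triosephosphate isomerase, had 10.79 ± 0.15. The cytosolic isocitrate dehydrogenase cICDH, on that list but outside both pathways, had 10.95 ± 0.09. Outside that list, MPPBETA and MAB1, which act in mitochondrial protein import and in pyruvate dehydrogenase, had 10.87 ± 0.11 and 10.86 ± 0.15. GR1, a glutathione reductase, had 10.85 ± 0.12. From TMT1 down to RAB6A, a Rab GTPase of vesicle traffic at 10.77 ± 0.11, each gene differed from the next by less than the SD of either, so this stretch has no resolved order. One noncoding RNA, AT7SL-1, the RNA of the signal recognition particle, had 10.58 ± 0.13.

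**Figure D4:**
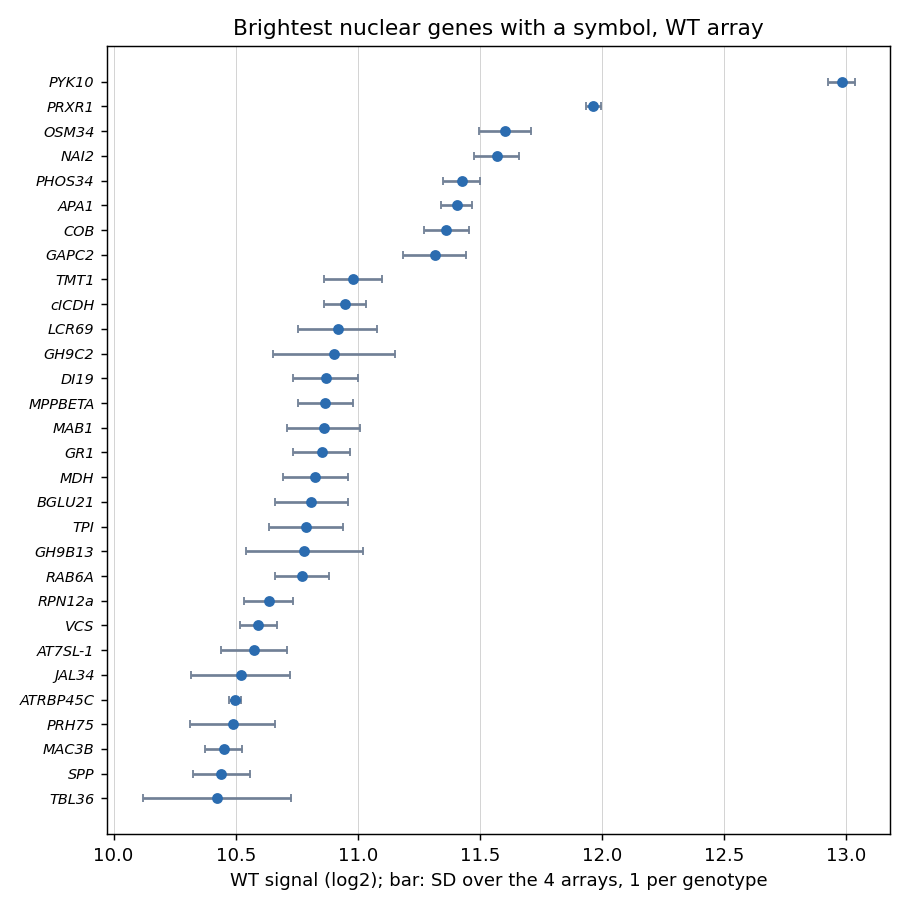
WT signal (log2) of the 30 nuclear genes with a symbol that had the highest signals, with bars of 1 SD over the 4 arrays (n = 4, 1 per genotype). PYK10 at 12.98 and PRXR1 at 11.96 stand apart from the others, and the bars of most genes below 11 overlap.

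Of the nitrate transport list, 8 genes had a row and 7 were used, and these spread over most of the range. Of 7, 2 were high and 1 was low, with a median of 6.81. The highest was NPF2.11 (GTR2), which carries glucosinolates, at 9.76 ± 0.09. NPF2.7 (NAXT1), a nitrate excretion transporter of the root plasma membrane, had 8.91 ± 0.11. NPF2.10 (GTR1), also a glucosinolate carrier, had 7.38 ± 0.15. The nitrate transporters NPF6.2 and NPF6.4 had 6.81 ± 0.22 and 3.98 ± 0.25, and NPF3.1, a nitrite and gibberellin carrier, had 5.97 ± 0.25. NRT2.5, a high-affinity nitrate transporter known to be induced by nitrogen starvation, had 1.99 ± 0.25, at percentile 11.1. Over all 13 named NPF genes the median was 6.58, 2 were high and 2 were low. NRT2.1, the ammonium transporters, the enzymes of nitrogen assimilation and the aquaporins were not analysed here.

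The shares of high genes were 16.7% for expansins, 15.8% for GH9 genes and 13.0% for TBL genes. These are near the 15.5% of all nuclear genes with a symbol. The named peroxidases had 50% and the xyloglucan genes had none. Of the 24 expansins, which loosen walls during growth, 4 were high and 3 were low, with a median of 5.51. EXPB3 had 9.98 ± 0.28, EXPA9 had 9.49 ± 0.04, EXPA4 had 9.22 ± 0.18 and EXPB1 had 8.92 ± 0.20, while EXPB4 had 1.79 ± 0.15. Of the 19 GH9 endoglucanases, 3 were high, GH9C2 at 10.90 ± 0.25, GH9B13 at 10.78 ± 0.24 and GH9B7 at 9.53 ± 0.06. GH9C1, known from root hairs and the endodermis, had 8.19 ± 0.11, and the family median was only 4.39. The 10 xyloglucan endotransglucosylase/hydrolases held to a narrower band, from XTH18 at 3.39 ± 0.34 to XTH21 at 6.89 ± 0.10, with none high and none low. Of the 8 named peroxidases, 4 were high. Beside PRXR1 these were AT5G64120 at 10.57 ± 0.58, AT5G66390 at 10.23 ± 0.14 and Prx37 at 10.22 ± 0.13. The spread of AT5G64120 is wider than its gaps to AT5G66390 and Prx37. HCT, an enzyme of lignin precursor synthesis, had 9.49 ± 0.08. Of the 23 TBL genes, a family of wall polysaccharide acetylation, 3 were high, led by TBL36 at 10.42 ± 0.30.

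The cytoskeleton list, with 8 measured tubulin and actin genes, had a median of 6.53. TUB9 and TUB6, beta-tubulins, had 8.83 ± 0.14 and 8.62 ± 0.10. ACT11, an actin of the reproductive class, had 8.19 ± 0.15, and ACT12, of the same class, had 3.79 ± 0.14. TUA6, an alpha-tubulin, had 3.67 ± 0.24. Tubulins and actins have near-identical relatives, so values of single members are uncertain. MT1C, a metallothionein, had 10.15 ± 0.22.

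Among families of named genes, aldehyde dehydrogenases and WRKY factors (7 genes) had the highest medians. Ubiquitin-specific proteases and SEC genes followed. The place of the WRKY factors depends on the median. With the mean over members they fell from percentile 88.5 to 74.4, below ubiquitin-specific proteases at 82.6 and SEC genes at 82.4. The 8 aldehyde dehydrogenases had a median of 8.36, at percentile 90.5, and 5 of them were high. ALDH2C4, which acts on phenylpropanoid aldehydes, had 10.29 ± 0.07, and ALDH11A3 was lowest at 5.01 ± 0.57. The 12 ubiquitin-specific proteases had a median of 7.68, 4 of them high, and the lowest, UBP22, still had 5.60 ± 0.04. The 12 SEC genes, of secretion, had a median of 7.63 and lay between SEC3B at 6.22 ± 0.44 and SEC22 at 9.25 ± 0.09. Among 9 subunits of RNA polymerase II the median was 7.28. Of the 8 autophagy genes, ATG8F was the only high one, at 9.14 ± 0.10.

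The lowest medians belonged to families of small secreted peptides and to MADS-box factors. Of the 63 genes with an LCR symbol, which encode small cysteine-rich proteins, 52 were low, with a median of 1.87. LCR and PDF genes were grouped by main symbol, without synonyms. A gene known by both names is counted under its symbol alone, so these groups are not shown to be separate. LCR69 (AT2G02100) at 10.92 ± 0.16 and LCR68 (AT2G02130) at 9.33 ± 0.08 stood far from the other genes with an LCR symbol. The next of these, LCR37, had 4.47 ± 0.15. PDF2.1 (AT2G02120), a defensin whose locus number falls between those of LCR69 and LCR68, had 6.38 ± 0.22. PDF2.5, another defensin, had 10.08 ± 0.16, while PDF1.2, a marker of jasmonate and ethylene responses, had 1.48 ± 0.70. Of the 12 SCRL genes, relatives of the pollen determinant of self-incompatibility, 10 were low. Of the 67 MADS-box genes, 46 were low and 2 were high, AGL26 at 8.96 ± 0.06 and AGL30 at 8.58 ± 0.11. AGL16 had 7.72 ± 0.13, and AGL21, which acts in lateral root growth, had 6.31 ± 0.16.

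Of 16 CLE genes, which encode signalling peptides, 6 were low and none was high, with a median of 4.596. The 3 highest were CLE41 at 8.07 ± 0.22, CLE42 at 7.31 ± 0.20 and CLE44 at 7.29 ± 0.13, which encode the TDIF group of peptides that keep vascular stem cells dividing. Of 18 RALF-like genes, 7 were low and none was high. RALFL34, which acts in lateral root initiation, led at 7.24 ± 0.15. In the SWEET family of sugar transporters the 3 highest of 14 were SWEET16 at 6.50 ± 0.31, SWEET2 at 6.302 ± 0.17 and SWEET17 at 5.70 ± 0.22, all known as transporters of the vacuolar membrane. SWEET13, at 5.37 ± 0.73, has a spread wider than its gap to SWEET17, so the order of this pair is not resolved. None of the 14 was high and 7 were low. Among 10 plant U-box ubiquitin ligases, PUB23, PUB24 and PUB22, which act together in dampening immune responses, had 9.11 ± 0.09, 7.06 ± 0.15 and 6.53 ± 0.10. PUB43, at 6.56 ± 0.07, lay between the last of these and PUB24.

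Transcription factor families differed widely in level. Over 93 genes named as bHLH, WRKY, MADS-box, AUX/IAA and ARF, NAC or ERF, the median was 2.47, with 51 genes low and 6 high. Of the 93, 67 are MADS-box genes, and NAC and ERF have 1 gene each. NAI1, a bHLH factor without such a name, is not among them. The 3 highest of the 9 genes named as bHLH were ILR3 at 10.37 ± 0.13, bHLH115 at 9.31 ± 0.25 and bHLH121 at 9.06 ± 0.11. All are known regulators of the response to iron deficiency. bHLH104, a close relative of ILR3 and bHLH115, had 5.89 ± 0.18. The 7 named WRKY factors had a median of 8.14, with WRKY6, known from phosphate and boron responses, at 9.20 ± 0.06 as the only high one. WRKY47, WRKY29 and WRKY20 followed at 8.29 ± 0.10, 8.17 ± 0.06 and 8.14 ± 0.14, the last pair apart by less than the SD of either. Of the 8 AUX/IAA and ARF genes, 4 were low and none was high, with IAA18 on top at 5.28 ± 0.08. The 17 genes named BZIP, which the 93 leave out, had a median of 6.44 and 3 were high. These were BZIP53 at 9.38 ± 0.08, BZIP61 at 8.62 ± 0.07 and bZIP19, a sensor of zinc deficiency, at 8.75 ± 0.07.

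Enzyme families of specialised metabolism differed in level. None of the 26 named cytochrome P450 genes was high and 13 were low, and CYP71B6 led at 7.68 ± 0.04. The 4 highest and the lowest of the 26 were all CYP71B genes, so these levels do not stand for P450 genes at large. P450 genes without such a name were not counted. Of 55 UDP-glycosyltransferases, 4 were high and 11 were low. UGT72E1, which acts on lignin precursors, had 9.79 ± 0.25, and UGT76B1, a modulator of salicylic acid responses, had 8.69 ± 0.29. The 14 glutathione S-transferases had a median of 5.96, and 2 were high, GSTU26 at 8.48 ± 0.09 and GSTU20 at 8.42 ± 0.26. Of 32 serine carboxypeptidase-like genes, 5 were high and 10 were low, with scpl50 at 10.07 ± 0.14 and SCPL49 at 10.04 ± 0.09. The 6 named glutaredoxins ran from ROXY2 at 2.06 ± 0.65 to GrxC5, a plastid form, at 6.76 ± 0.03. The floral regulator ROXY1 had 3.24 ± 0.10.

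**Figure D5:**
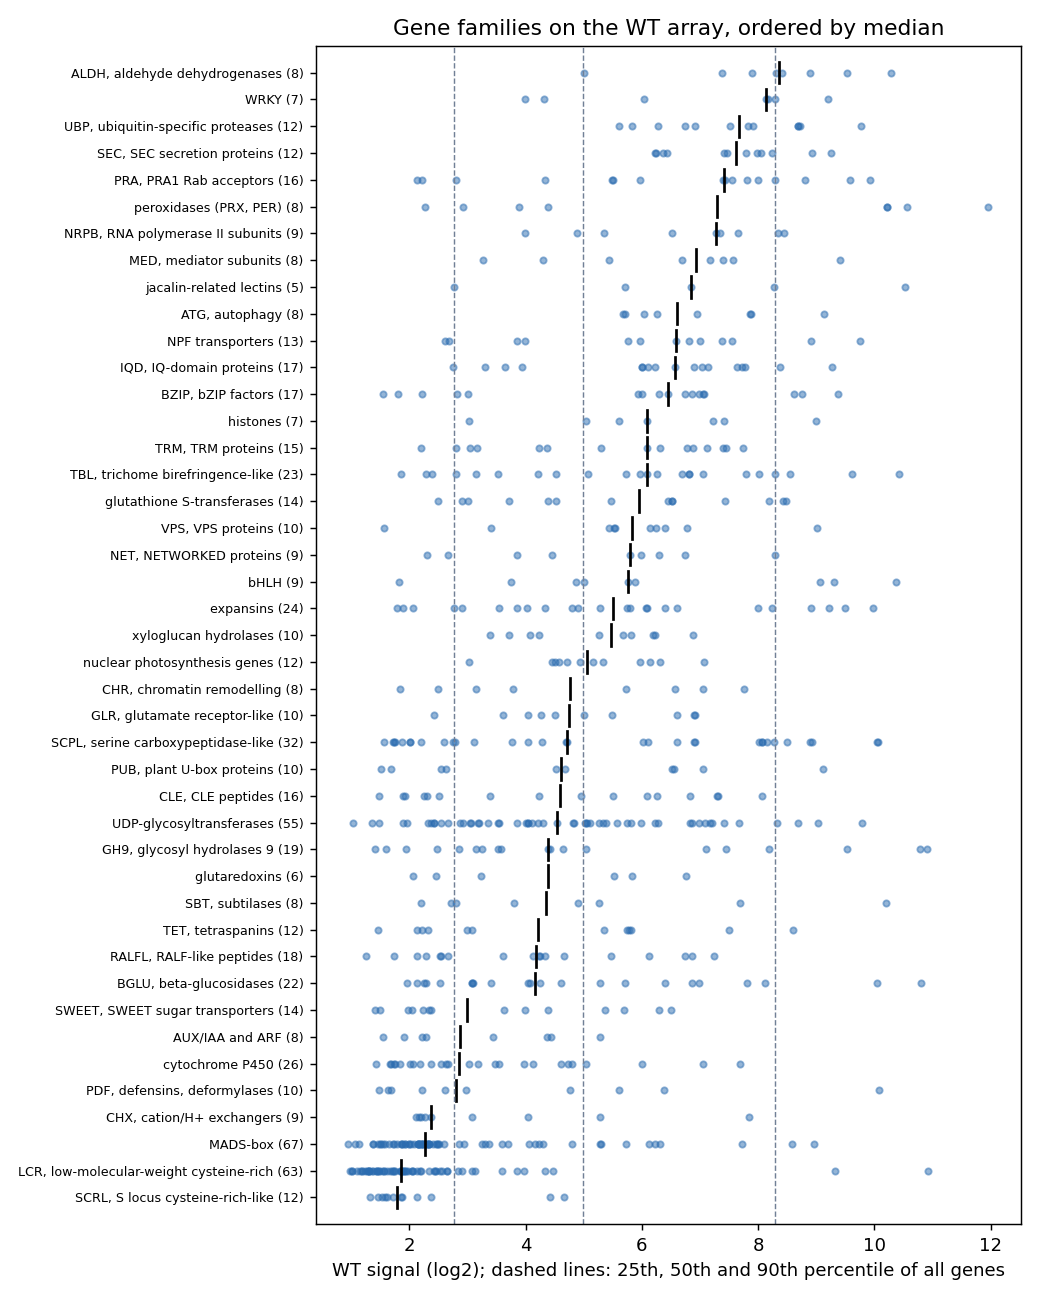
WT signal (log2) of single genes (points) in 43 gene families, ordered by median (black bar), with the number of genes in brackets. Each family holds only the genes named as its members. Dashed lines mark the 25th, 50th and 90th percentiles of all genes. Aldehyde dehydrogenases have the highest median, 8.36, and SCRL genes the lowest, 1.79. LCR69 and LCR68 lie far to the right of the other genes with an LCR symbol.

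Of the 43 families, 23 had a median above that of all genes. In 8 families at least 50 percent of the genes were low, and in 14 no gene was high. Genes with a symbol are not an even sample of the array. The 1724 nuclear genes with a symbol had a median of 5.75 and 15.5% were high, against 4.87 and 8.67% for the 14692 known by locus number only. Family medians should be read beside both values. Nuclear genes of the 5 chromosomes had medians between 4.84 and 5.07.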

How the data were processed

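The deposited table holds log2 signals per array row. The submitters' processing notes name Affymetrix Expression Console 1.3. How rows were summarised and arrays normalised is not given here, and the log base was inferred from the range of 0.431 to 13.8. Values were used as deposited. Of 38408 rows, 16722 name 1 gene in the platform annotation, 759 several and 20927 none; 16574 rows matched the RefSeq gene table by Entrez ID. That table served for names only, and no coordinates are given since no build is stated. For 148 genes with several rows, the row with the highest mean was used.

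Members and gene lists were chosen with earlier results of these data known. Named genes were the 30 highest genes, the 4 highest and the lowest of each list or family, and the 10 highest genes of 7 transcription factor families (WRKY, NAC, MYB, bHLH, ERF, MADS-box, AUX/IAA and ARF), which leave out bZIP and of which MYB had no named gene. The rule also named CEPH, CEPD1, CEPD2, CEPDL1 and CEPDL2, to which the tables give no locus. Other genes in the text were chosen after their values were seen. Of 351 list members, 66 had a row and 50 were used. The other 16 were left out because the tables do not give the label. SGN3 was kept because the tables list its locus under another name, and no other member was given such a second name. Families came from symbol patterns or symbol stems with at least 8 genes. Families of peroxidases, NPF transporters and nuclear photosynthesis were added after the tables were seen. One family is not reported here. Planned promoter and protein results were not run, as no sequences were used here. Ranking was tested on simulated data. Python 3.11.15, numpy 2.4.6, pandas 2.3.3 and scipy 1.17.1 were used. The labels do not say whether arrays come from separate cultures. The number of arrays limits the precision.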

Additional observations from a re-analysis of the deposited data

How the results depend on the processing

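No paired analysis was possible because each genotype has 1 array. Of the 30 highest genes, 27 stayed when the rows of a gene were averaged, 25 with rows of several genes let in, and 30 with the mean over the 4 arrays. Ranking only nuclear genes outside AT2G07667 to AT2G07835, a setting chosen after seeing the data, kept 6 by construction. Of 81 organelle genes, 78 lay in the highest 10.0%, 75 with a threshold at the 95th percentile and 81 at the 80th. Of 50 lists and families, 27 had a median above the 50th percentile, and 26 to 30 under the 8 alternatives. With genes below the 25th percentile left out, 9 of the 47 lists and families left changed side of the median, expansins (56.2 to 46.3) and bHLH (59.2 to 46.7) among them. Nuclear photosynthesis genes moved to percentile 45.0 with the mean over the 4 arrays, against 50.7. Planned promoter windows, strands and protein length means were not run, since no sequences were used here. One array per genotype and low signals limit the order of genes most below 4.05.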

Other observations

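Rows of the array without a gene name were as bright as named ones. Of the 20927 rows with no gene, 14.2% lay above 8.298, against 10.0% of the 16722 rows with 1 gene. Of these unnamed rows, 16 were brighter than rpl2, the brightest named gene. Among the 20 brightest unnamed rows, 15 had the same value as another row on all 4 arrays, as did 7138 rows of the whole table. No 2 named genes had the same values on all 4 arrays. The brightest row of the WT array, at 13.76, has no gene name here.

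Rows of 1 gene differed widely in some cases. The mitochondrial gene nad1 had 7 rows between 6.55 and 12.97. The 3 rows of nad2 lay between 11.24 and 12.16, and the 2 rows of nad5 at 11.95 and 12.06. Over the 148 genes with several rows, the median span was 1.32.

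Nuclear genes next to each other in the RefSeq order had more similar WT signals than genes farther apart. Over 10333 pairs of adjacent genes, Spearman's rho across pairs was 0.189 and the median absolute difference was 1.98. At 2 genes apart rho was 0.113, at 10 genes apart 0.0618, and at 100 genes apart 0.0258 with a median difference of 2.37. The pairs share 1 array and are not independent replicates, so this is a description without a test.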
